A study of Mus musculus with 12 samples.

Results

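The liver endothelial markers described here are 10 genes whose products mark the cells that line blood vessels and sinusoids in liver: Kdr, Flt1, Tek, Ptprb, Eng, Cdh5, Pecam1, Stab1, Lyve1 and Oit3. They were found through the array annotation as every probe set that carries 1 of these symbols and no other. This gave 15 of the 22626 probe sets tested, and 10 of the 12393 genes with a symbol. All came from whole mouse liver RNA on 12 Affymetrix arrays, 3 in each of 4 groups. The animals were Aag knock-out and wild-type C57Bl/6J mice aged 6 to 8 weeks, where Aag, listed on the array under the symbol Mpg, is the DNA glycosylase that removes methylated bases such as 3-methyladenine. The 4 groups were knock-out after MMS, control knock-out, wild type after MMS and control wild type. MMS (methyl methanesulfonate), an agent that methylates DNA, was given once into the peritoneum at 75 mg per kg, and livers were taken 6 hours later. The labels call the other livers controls without saying whether those mice received a vehicle injection, and they describe the knock-out allele no further. No driver specific to a cell type is named.

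Liver sinusoidal endothelium is a perforated lining that lets plasma reach the hepatocytes and clears waste molecules from the blood. Like all endothelium it depends on the vascular endothelial growth factor and angiopoietin receptor systems and holds itself together with junction proteins such as VE-cadherin. What sets it apart from most other vessels is a dense set of scavenger receptors. Several of the 10 genes are not made by endothelium alone: Stab1 and Lyve1 are also found in some macrophages, Pecam1 in platelets and leukocytes, and Eng in stellate cells and macrophages. In RNA from whole liver, fewer endothelial cells and less of an RNA per endothelial cell cannot be told apart.

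The values are log2 signals, and each probe set has its own brightness, so only differences of 1 probe set between arrays are compared, never the levels of different probe sets. Hepatocyte genes were among the brightest on every array, with the Alb probe set between 14.16 and 14.61 on a scale that ended at 14.70. By its dimmer probe set, 1417571_at, the targeted gene Mpg read 5.47 ± 0.24 in MMS-treated knock-out livers against 6.72 ± 0.28 in MMS-treated wild-type livers, and 5.33 ± 0.34 in control knock-out livers against 6.43 ± 0.20 in control wild-type livers (SD, n = 3 each). A second and brighter Mpg probe set, 1417572_at, read 7.92 ± 0.28 in MMS-treated knock-out livers against 8.24 ± 0.24 in MMS-treated wild-type livers, and 7.66 ± 0.27 in control knock-out livers against 7.97 ± 0.15 in control wild-type livers, with overlapping ranges. Which of the 2 probe sets, if either, lies in the deleted part is not given in the sources used here. On 9 of the 12 arrays the most similar array was of the same group. MMS-treated knock-out array 3 was closest to control wild-type array 2, and control knock-out array 3 to MMS-treated knock-out array 3. MMS-treated wild-type array 1 was closest to control knock-out array 2. MMS-treated knock-out arrays 1 and 2 stood apart in the difference between 5' and 3' probe sets for the control genes actin and Gapdh, a sign of RNA length, with -1.61 and -1.51 on the log2 scale against -2.66 to -2.001 on the other 10 arrays. The MMS difference of each gene in knock-out is therefore also given below with that measure as a covariate. Because both arrays that stand apart are MMS-treated knock-out arrays, MMS in knock-out and that measure cannot be fully told apart. The values with the covariate are thus not corrected effects. Each array is 1 animal by its label, and the animals are numbered 1 to 3 within a group. P-values are from limma, adjusted by the Benjamini-Hochberg method over all 22626 probe sets, and a change was called at an adjusted p under 0.05.

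In wild-type livers Tek, Kdr, Oit3, Cdh5 and Ptprb fell after MMS, while Flt1, Eng, Pecam1, Stab1 and Lyve1 did not pass the test by their brightest probe sets. Of the 15 probe sets, 6 fell and 0 rose, where 4.45% of all probe sets fell and 6.44% moved in either direction. Of all probe sets that changed, 30.9% were higher after MMS, a share that was 53.7% when the arrays were quantile normalized once more and 72.8% when each array was centred on its median. Under these 2 scalings 4 and 3 of the 15 fell. With 1 probe set per gene (the brightest on average), 5 of 10 genes fell, where 5.33% of all genes fell. All 10 differences were below 0, as were 57.8% of those of all genes. Their median was -0.50 on the log2 scale against -0.06 over all genes. With each array centred on its median the 10 differences were still below 0, but all 10 were smaller than as deposited. They ran from -0.86 for Cdh5 to -0.02 for Stab1, with Flt1 at -0.19 and Eng and Lyve1 at -0.14. Tek (-0.54, limma adjusted p = 0.0513) and Ptprb (-0.33, adjusted p = 0.130) then no longer passed. In 7 of the 10 genes every MMS-treated wild-type array lay below every control wild-type array, a pattern shown by 22.0% of all genes. The calls depend on the control wild-type arrays: 0 of the 15 passed without array 1 or without array 3 of that group, although the differences of all 10 genes stayed below 0.

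In knock-out livers only Oit3 fell after MMS, 1 of 15 probe sets, where 0.76% of all probe sets fell and 1.51% moved in either direction. The median over the 10 genes there was -0.10 against -0.06 over all genes, and 4 of the 10 differences were above 0. Treated arrays lay clear above the controls for Stab1 and Lyve1, 2 of 10 genes, where 13.9% of all genes did so, and clear below for Tek and Oit3, where 14.6% did.

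**Figure D1:**
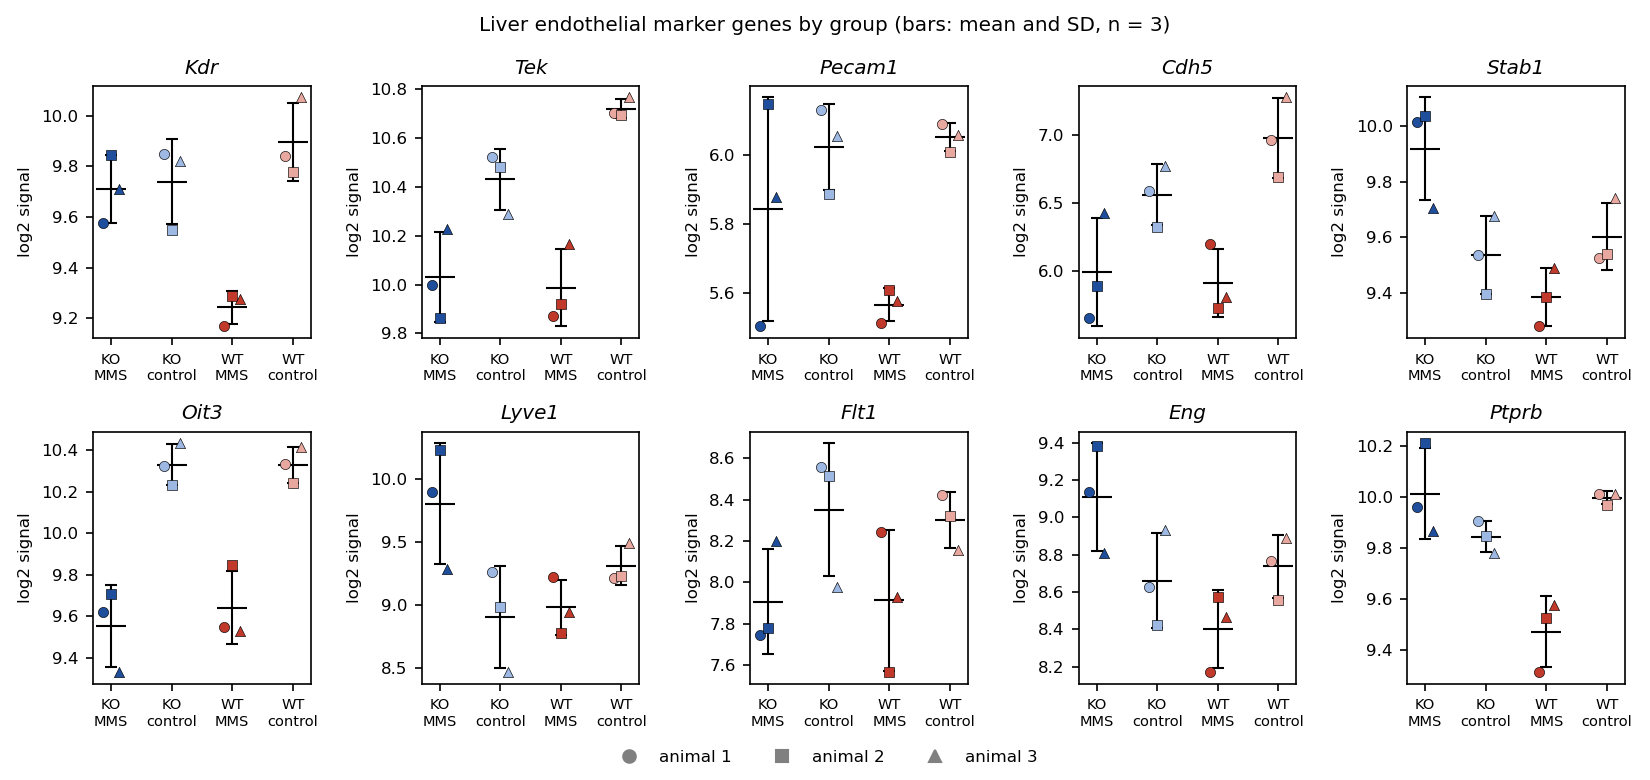
Log2 signal of the brightest probe set of each of the 10 genes, with 1 panel per gene, 1 point per animal and bars for the group mean and SD (n = 3). MMS-treated knock-out points sit below all control knock-out points for Tek and Oit3, and in wild type this holds for Kdr, Tek, Pecam1, Cdh5, Stab1, Oit3 and Ptprb.

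Kdr encodes the main signalling receptor for vascular endothelial growth factor A. Its signal was 9.58, 9.84 and 9.71 in MMS-treated knock-out livers, against 9.85, 9.55 and 9.82 in control knock-out livers. In MMS-treated wild-type livers it was 9.17, 9.29 and 9.28, against 9.84, 9.78 and 10.07 in control wild-type livers. The knock-out groups overlapped, and the wild-type groups were clear of each other, with the MMS-treated wild-type arrays alone at the bottom. Kdr differed by -0.03 ± 0.13 after MMS in knock-out (SE, limma adjusted p = 0.907), with a 95% interval from -0.32 to 0.26, and by -0.12 with the 5' to 3' control signal in the model. It fell by 0.65 ± 0.13 in wild type (adjusted p = 0.019), a factor of 1.57. The order of the group means was control wild type, control knock-out, MMS-treated knock-out and MMS-treated wild type, and neighbours among the first 3 overlapped.

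Flt1 encodes the other vascular endothelial growth factor receptor of the set, which binds the ligand tightly and also exists in a soluble, decoy form. It had 3 probe sets. The brightest, 1419300_at, read 7.75, 7.78 and 8.20 in MMS-treated knock-out livers, against 8.56, 8.51 and 7.98 in control knock-out livers. It read 8.24, 7.57 and 7.93 in MMS-treated wild-type livers, against 8.42, 8.32 and 8.16 in control wild-type livers. Treated and control values overlapped in both genotypes, and the differences of -0.44 ± 0.21 in knock-out (adjusted p = 0.223) and -0.39 ± 0.21 in wild type (adjusted p = 0.305) did not pass. With the 5' to 3' control signal in the model the knock-out difference was 0.02, of the opposite sign, and the wild-type one was -0.19 with arrays quantile normalized once more. The probe set 1451756_at read 7.09, 7.08 and 7.38 in MMS-treated knock-out livers, against 7.57, 7.75 and 7.38 in control knock-out livers. In wild type it read 7.18, 7.12 and 7.19 after MMS, against 7.86, 7.71 and 8.02 in controls. The gap was wide in wild type, whereas in knock-out the third array of each group met. Its difference was -0.39 ± 0.14 in knock-out (adjusted p = 0.121), and it fell by 0.70 ± 0.14 in wild type (adjusted p = 0.0178). The dim 1454037_a_at stayed between 4.36 and 4.85 on all arrays.

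Tek encodes Tie2, the receptor for the angiopoietins, which keeps vessels stable. Its signal was 9.9999, 9.86 and 10.23 in MMS-treated knock-out livers, against 10.52, 10.48 and 10.29 in control knock-out livers. In wild type it was 9.87, 9.92 and 10.17 after MMS, against 10.70, 10.69 and 10.77 in controls. Both genotypes showed lower values after MMS on every array, the knock-out groups being separated only narrowly. Tek differed by -0.40 ± 0.13 in knock-out (adjusted p = 0.105), or by -0.22 with the 5' to 3' control signal in the model, and fell by 0.73 ± 0.13 in wild type (adjusted p = 0.013), a factor of 1.66. Averaged over both genotypes the MMS difference was -0.57 ± 0.09 (adjusted p = 0.00523), and it stayed past the threshold in all 22 alternative analyses of that average. Control knock-out livers lay below control wild-type livers on every array, by 0.29 ± 0.13, which did not pass the test (adjusted p = 0.697).

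Ptprb encodes VE-PTP, the endothelial phosphatase that acts on Tie2 and on VE-cadherin complexes. Its signal was 9.96, 10.21 and 9.87 in MMS-treated knock-out livers, against 9.90, 9.85 and 9.78 in control knock-out livers. Wild-type livers read 9.31, 9.52 and 9.57 after MMS, against 10.01, 9.97 and 10.01 in controls. Low values were thus seen in MMS-treated wild-type livers only, and the treated and control knock-out arrays overlapped. Ptprb differed by 0.17 ± 0.12 in knock-out (adjusted p = 0.415), or by 0.02 with the control signal in the model, and fell by 0.53 ± 0.12 in wild type (adjusted p = 0.0325). The wild-type call was held in 13 of 23 alternative analyses and was lost, among others, on leaving out any 1 of the 6 wild-type arrays.

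Eng encodes endoglin, a co-receptor for ligands of the transforming growth factor beta and bone morphogenetic protein family. Its 2 probe sets differed in pattern. The brighter, 1417271_a_at, read 9.14, 9.38 and 8.81 in MMS-treated knock-out livers, against 8.63, 8.42 and 8.93 in control knock-out livers. In wild type it read 8.17, 8.57 and 8.47 after MMS, against 8.77, 8.56 and 8.89 in controls. The highest values of all were on MMS-treated knock-out arrays 1 and 2, the arrays with the high 5' to 3' control signal. The differences were 0.45 ± 0.19 in knock-out (adjusted p = 0.171), or 0.05 with the control signal in the model, and -0.33 ± 0.19 in wild type (adjusted p = 0.316). The other probe set, 1432176_a_at, differed by -0.36 ± 0.16 in knock-out (adjusted p = 0.190) and by -0.47 ± 0.16 in wild type (adjusted p = 0.107), and fell by 0.42 ± 0.11 over both genotypes (adjusted p = 0.0388). Across the 12 arrays the Pearson correlation of the 2 Eng probe sets was -0.05.

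Cdh5 encodes VE-cadherin, the adhesion molecule of endothelial junctions. Its brighter probe set, 1433956_at, read 5.66, 5.90 and 6.43 in MMS-treated knock-out livers, against 6.59, 6.33 and 6.77 in control knock-out livers. In wild type it read 6.20, 5.73 and 5.82 after MMS, against 6.96, 6.69 and 7.27 in controls. The knock-out groups overlapped through MMS-treated array 3, and the wild-type groups were apart. Cdh5 differed by -0.57 ± 0.23 in knock-out (adjusted p = 0.155), or by -0.25 with the 5' to 3' control signal in the model, and fell by 1.06 ± 0.23 in wild type (adjusted p = 0.0233), a factor of 2.08 and the largest wild-type difference among the 10 genes. The second probe set, 1422047_at, was dim, at 4.91, 5.27 and 4.91 in MMS-treated wild-type livers against 4.83, 4.46 and 4.71 in control wild-type livers. Its wild-type difference of 0.36 ± 0.19 had the opposite sign and did not pass (adjusted p = 0.274). The 2 probe sets correlated at -0.57 across the 12 arrays, and with their mean taken as the gene value the Cdh5 call was lost.

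Pecam1 encodes CD31, an adhesion protein of endothelial contacts. Its signal was 5.50, 6.15 and 5.88 in MMS-treated knock-out livers, against 6.13, 5.89 and 6.05 in control knock-out livers. The wild-type values were 5.51, 5.61 and 5.58 after MMS, against 6.09, 6.01 and 6.06 in controls. MMS-treated knock-out livers held both the lowest and the highest value of the gene, whereas the wild-type values were tight and apart. The difference was -0.18 ± 0.15 in knock-out (adjusted p = 0.484), or 0.03 with arrays quantile normalized once more and -0.22 with the control signal in the model, and -0.48 ± 0.15 in wild type (adjusted p = 0.0853).

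Stab1 encodes stabilin-1, a scavenger receptor of sinusoidal endothelium. Its signal was 10.01, 10.04 and 9.70 in MMS-treated knock-out livers, against 9.54, 9.39 and 9.68 in control knock-out livers. In wild type it was 9.28, 9.39 and 9.49 after MMS, against 9.52, 9.54 and 9.74 in controls. Every treated array was higher than the control ones in knock-out and lower in wild type, although the knock-out arrays numbered 3 differed little. The differences were 0.38 ± 0.13 in knock-out (adjusted p = 0.119) and -0.22 ± 0.13 in wild type (adjusted p = 0.364). With the 5' to 3' control signal in the model the knock-out value was 0.16.

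Lyve1 encodes a hyaluronan receptor of sinusoidal and lymphatic endothelium. Its brighter probe set, 1453128_at, read 9.89, 10.23 and 9.29 in MMS-treated knock-out livers, against 9.26, 8.98 and 8.46 in control knock-out livers. Wild-type livers read 9.22, 8.78 and 8.94 after MMS, against 9.21, 9.23 and 9.49 in controls. MMS-treated knock-out arrays 1 and 2 were again the highest of all 12, and array 3 was only just above the control range. The differences were 0.90 ± 0.25 in knock-out (adjusted p = 0.0788), or 0.68 with the control signal in the model, and -0.33 ± 0.25 in wild type (adjusted p = 0.468). The other probe set, 1429379_at, differed by 0.38 ± 0.35 in knock-out (adjusted p = 0.528) and by 0.11 ± 0.35 in wild type (adjusted p = 0.886).

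Oit3 encodes a secreted zona pellucida domain protein of liver. Its signal was 9.62, 9.71 and 9.33 in MMS-treated knock-out livers, against 10.32, 10.23 and 10.43 in control knock-out livers. The wild-type values were 9.55, 9.85 and 9.53 after MMS, against 10.33, 10.24 and 10.41 in controls. A gap between treated and control arrays was seen in both genotypes, and control livers of both genotypes had nearly equal values. Oit3 fell by 0.78 ± 0.14 in knock-out (adjusted p = 0.0333) and fell by 0.69 ± 0.14 in wild type (adjusted p = 0.0188). The difference between these responses was -0.09 ± 0.20 (adjusted p = 0.842), with a 95% interval from -0.52 to 0.34. Over both genotypes Oit3 fell by 0.73 ± 0.10 (adjusted p = 0.00248), and this call was kept in all 22 alternative analyses. The call in knock-out alone was kept in 12 of 23, and in 4 of the 12 that left out 1 array (those without control knock-out array 3, MMS-treated knock-out array 3, or MMS-treated wild-type array 1 or 2); with the 5' to 3' control signal in the model the difference was -1.06 ± 0.12 (adjusted p = 0.0519).

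**Figure D2:**
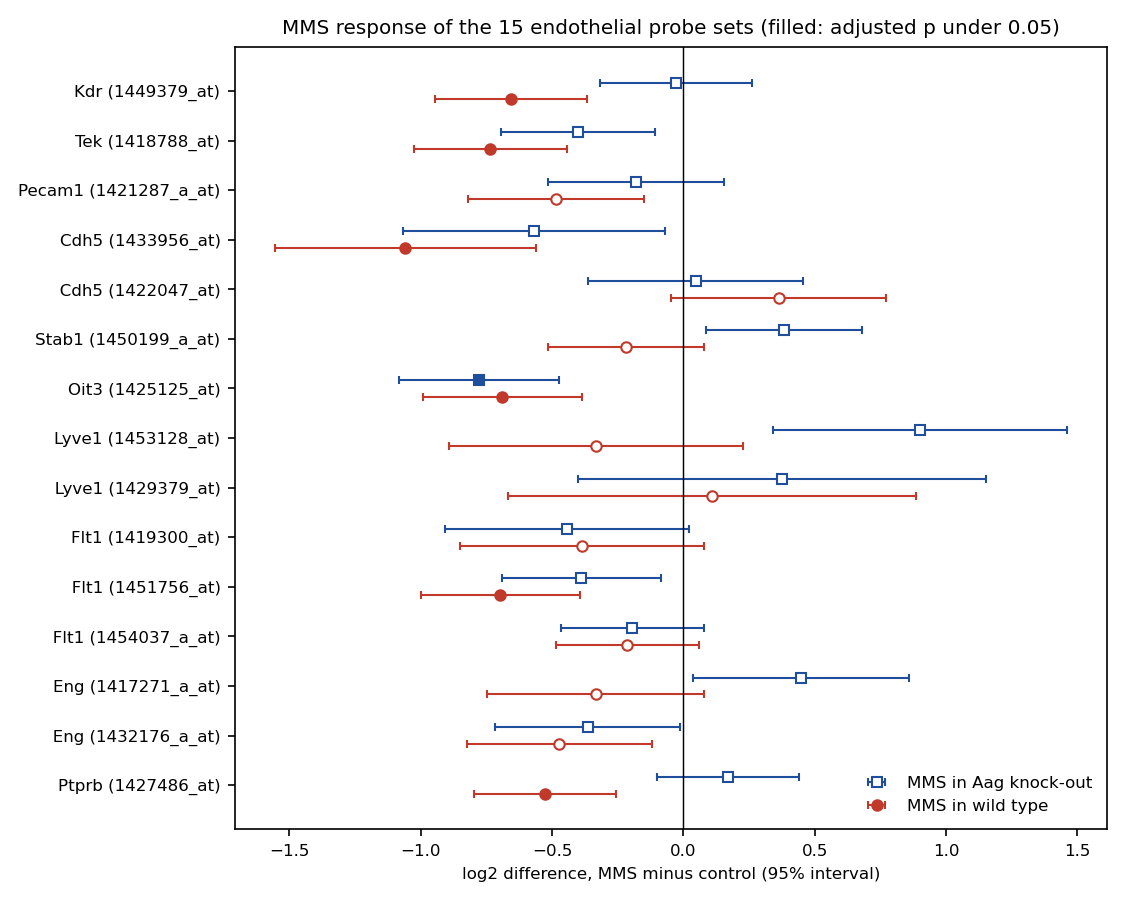
Log2 difference, MMS minus control, of the 15 probe sets in knock-out and in wild type, with 95% intervals from limma and filled markers where the change passed the threshold. In knock-out Lyve1 1453128_at lies furthest above 0, at 0.90, and Oit3 furthest below, at -0.78, and in wild type Cdh5 1433956_at lies furthest below 0, at -1.06.

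The question whether loss of Aag alters these genes was put to the data directly. Among controls, 0 of the 15 probe sets differed between knock-out and wild type (limma, 0.0398% of all probe sets), and 0 had an unadjusted p under 0.05, where 7.16% of all did. In 2 of the 10 genes, Tek and Ptprb, every control knock-out array lay below every control wild-type array, as in 10.8% of all genes. With MMS, 0 of 15 differed (0.0177% of all), while 5 had an unadjusted p under 0.05, where 18.4% of all probe sets did. These 5 were the ones of Ptprb, Stab1, Eng, Kdr and Lyve1. All MMS-treated knock-out arrays lay above all MMS-treated wild-type arrays in 5 of the 10 genes, where 11.6% of all genes showed this. They were the same 5 genes, so the gap and the low p come from the same values. The differences were 0.54 ± 0.12 for Ptprb (adjusted p = 0.105), 0.53 ± 0.13 for Stab1 (adjusted p = 0.116), 0.70 ± 0.19 for Eng (adjusted p = 0.125), 0.47 ± 0.13 for Kdr (adjusted p = 0.138) and 0.83 ± 0.25 for Lyve1 (adjusted p = 0.157). With each array centred on its median these 5 differences ran from 0.30 for Kdr to 0.66 for Lyve1. With the 5' to 3' control signal as a covariate 0 of the 15 passed. Over the 23 alternative analyses, that one included, the 5 differences stayed above 0. Their lowest values were 0.38 for Ptprb, 0.37 for Stab1, 0.40 for Eng, 0.30 for Kdr and 0.54 for Lyve1. The other probe sets of Eng and Lyve1 showed smaller differences. They were 0.10 ± 0.16 for 1432176_a_at of Eng (limma adjusted p = 0.782) and 0.26 ± 0.35 for 1429379_at of Lyve1 (adjusted p = 0.743). Without MMS-treated knock-out array 3, Ptprb, Stab1, Eng and Lyve1 passed the threshold, in a fit that called 1118 of all 22626 probe sets (4.94%), where the fit of all arrays called 4. The remaining arrays of that group are those with the high 5' to 3' control signal, whose part in these calls was not tested.

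The difference between the knock-out and the wild-type response to MMS passed for 0 of 15 probe sets and for 0 of 22626 in all (limma, 0.0% called), while 5 of 15 and 17.7% of all had an unadjusted p under 0.05. The values were 1.23 ± 0.36 for Lyve1 (adjusted p = 0.160), 0.78 ± 0.26 for Eng (adjusted p = 0.195), 0.69 ± 0.17 for Ptprb (adjusted p = 0.131), 0.63 ± 0.19 for Kdr (adjusted p = 0.164) and 0.60 ± 0.19 for Stab1 (adjusted p = 0.176). Tek differed by 0.33 ± 0.19 (adjusted p = 0.373). With each array centred on its median the values were 0.98 for Lyve1, 0.52 for Eng, 0.43 for Ptprb, 0.37 for Kdr, 0.34 for Stab1 and 0.07 for Tek. With the 5' to 3' control signal as a covariate 0 of the 15 passed. Over the 22 alternative analyses, that one included, the values ran from 0.75 to 1.49 for Lyve1 and 0.38 to 1.07 for Eng. They ran from 0.43 to 0.77 for Ptprb, 0.37 to 0.69 for Kdr and 0.34 to 0.78 for Stab1. By the other probe sets the value was 0.11 ± 0.23 for 1432176_a_at of Eng (limma adjusted p = 0.836). It was 0.27 ± 0.50 for 1429379_at of Lyve1 (adjusted p = 0.812). A response called in wild type and not in knock-out is therefore not shown to differ between them. With array weights 4 of the 15 passed, where 2344 of all probe sets did (10.4%). With both knock-out arrays numbered 3 left out only Lyve1 did among the 15, where 514 of all did (2.27%). Over both genotypes, 6 of 15 probe sets fell after MMS, where 6.66% of all fell and 11.3% moved in either direction: those of Tek, Oit3, Cdh5 and Kdr, with 1451756_at of Flt1 and 1432176_a_at of Eng. By gene this was 4 of 10, where 7.49% of all genes fell. Of these 4 calls, that of Kdr was kept in 9 of 22 alternative analyses and that of Cdh5 in 20 of 22; Kdr lost it on centring, with the replicate block, with the control signal as a covariate and in 9 of the 12 fits that left out 1 array, among others.

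**Figure D3:**
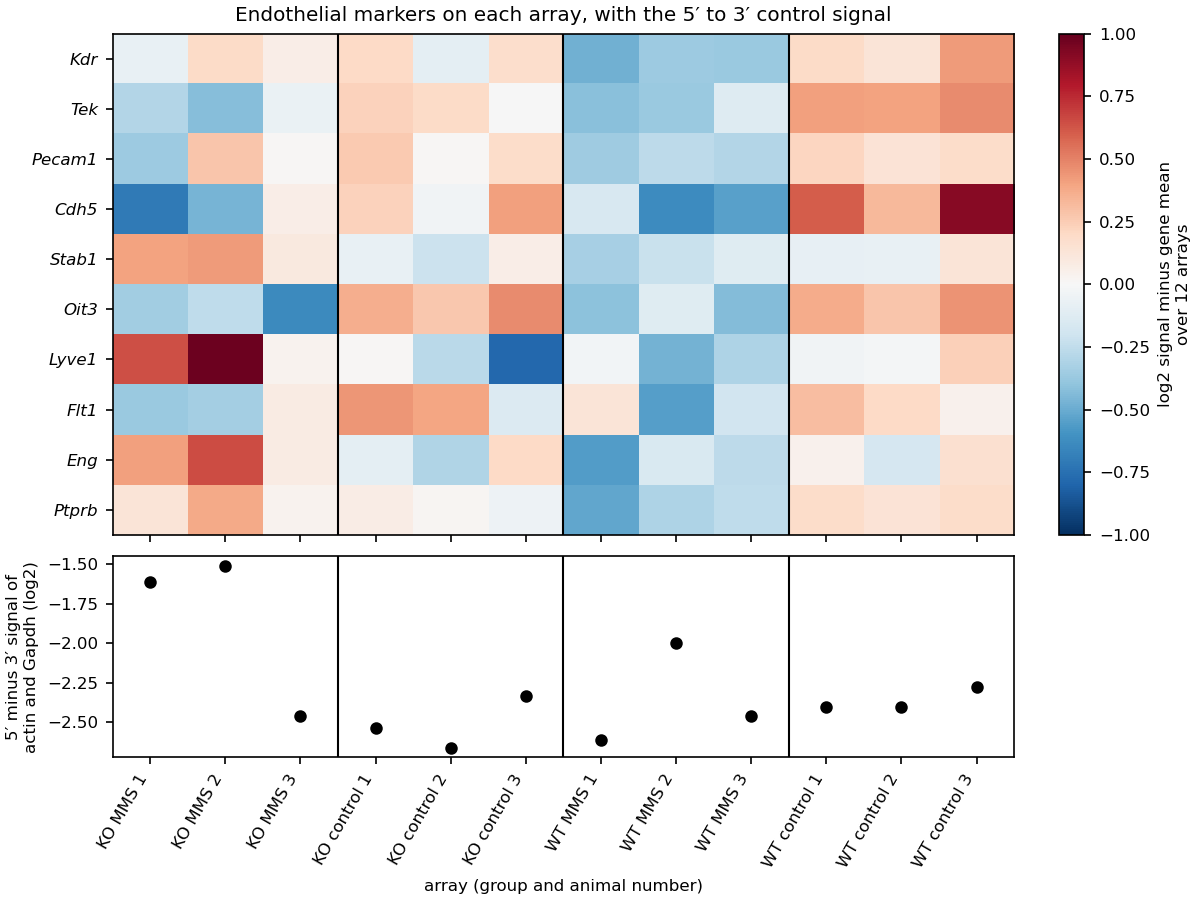
Colour map of the log2 signal of each of the 10 genes on each of the 12 arrays, minus the mean of the gene, above the 5' minus 3' log2 signal of actin and Gapdh. The MMS-treated wild-type columns are below the gene mean for nearly all genes, with averages from -0.34 to -0.29, and MMS-treated knock-out arrays 1 and 2 stand out in the lower panel at -1.61 and -1.51.

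Seen array by array, MMS-treated wild-type livers were the ones set apart. After each gene was centred on its own average, the mean over the 10 genes on knock-out arrays was -0.06, 0.14 and -0.02 after MMS, against 0.16, -0.00 and 0.05 in controls, with overlap. On wild-type arrays it was -0.31, -0.34 and -0.29 after MMS, against 0.22, 0.14 and 0.32 in controls, with none. Among the 3 MMS-treated wild-type arrays, 1, 0 and 0 of the genes lay above their own average. The genes did not all move together. Across the 12 arrays, which differ in treatment, genotype and 5' to 3' control signal, Stab1 and 1417271_a_at of Eng correlated at 0.95. Kdr and Pecam1 correlated at 0.88, and Kdr and Ptprb and likewise Tek and Cdh5 at 0.85. Flt1 ran against Eng at -0.44 and against Stab1 at -0.41. The 5 genes outside the set whose profiles were most like its mean by Pearson correlation over the 12 arrays were Anp32a at 0.97, Wbp1 at 0.96, and Gucy1b1, Pcolce2 and Dhrs3 at 0.95.

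**Figure D4:**
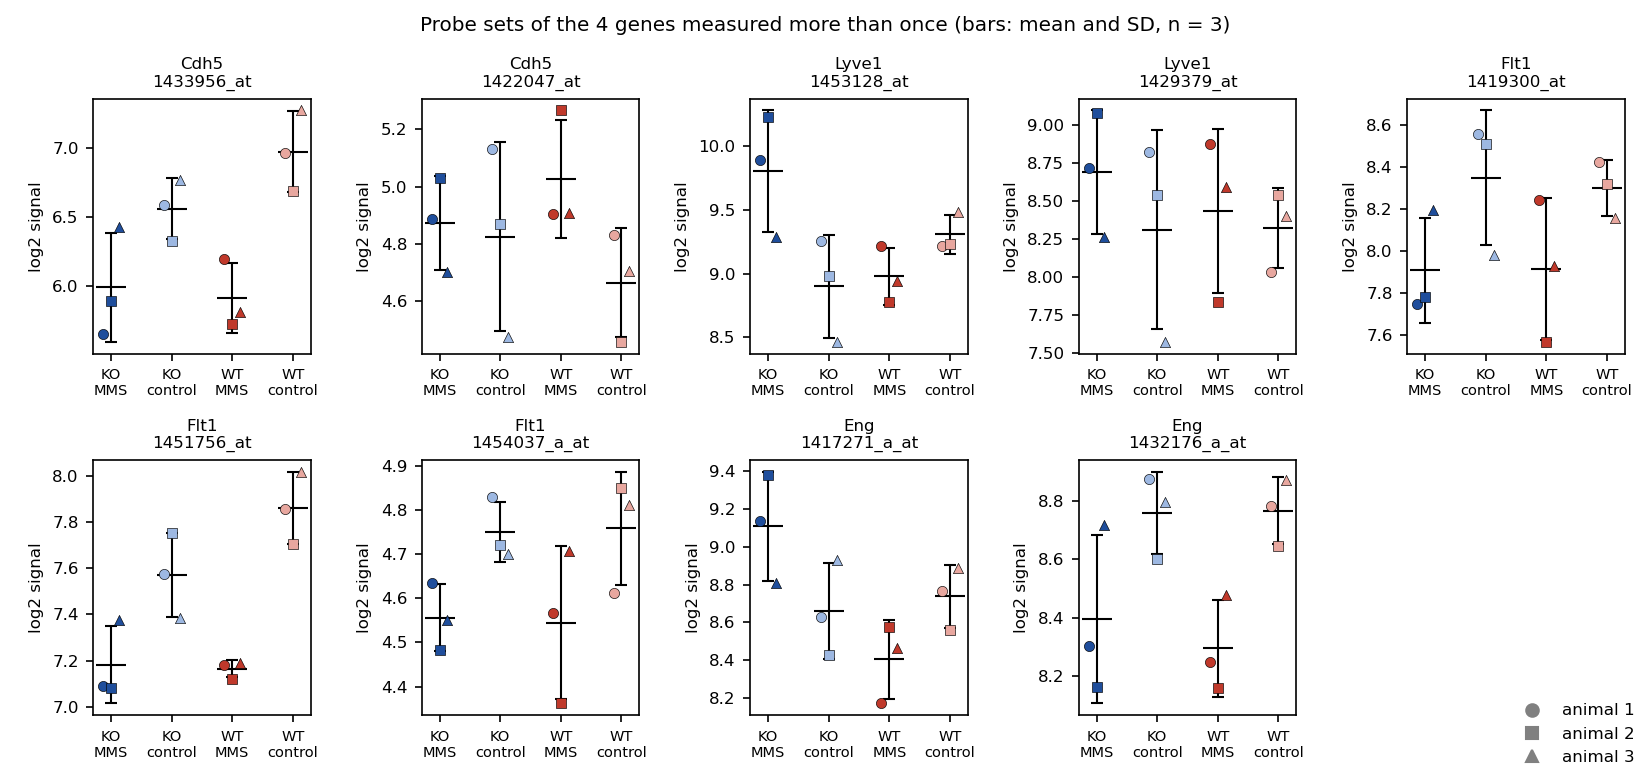
Log2 signal of every probe set of the 4 genes with more than 1 (Cdh5, Lyve1, Flt1 and Eng), with 1 panel per probe set, 1 point per animal and bars for the group mean and SD (n = 3). The dim Cdh5 probe set 1422047_at is higher in MMS-treated wild-type livers where 1433956_at is lower, and of the 2 Eng probe sets only 1417271_a_at has its highest points in MMS-treated knock-out livers.

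The start regions of the genes were read where the RefSeq promoter table (GRCm38.p6) held them, which was the case for Kdr, Flt1, Tek, Eng and Stab1. Each entry is a window of 300 bases around 1 annotated start of the gene, which need not be the outermost. Against the outermost start of the annotated gene, the window begins 250 bases before it for Eng, 240 for Stab1 and 47 for Tek, whereas it begins 367 bases inside the gene for Kdr and 177 inside for Flt1. Shown are Tek and Kdr, receptors that fell in wild type, and Stab1 and Eng, whose brightest probe sets had the most similar profiles of any 2 of the genes. They lie at chr4:94739039-94739338 on the plus strand for Tek, chr5:75978406-75978705 on the minus strand for Kdr, chr14:31168592-31168891 on the minus strand for Stab1 and chr2:32646345-32646644 on the plus strand for Eng. Capitals mark AGGAAG or its reverse complement CTTCCT, letters recognised by ETS factors, the family that governs many endothelial genes.
Tek: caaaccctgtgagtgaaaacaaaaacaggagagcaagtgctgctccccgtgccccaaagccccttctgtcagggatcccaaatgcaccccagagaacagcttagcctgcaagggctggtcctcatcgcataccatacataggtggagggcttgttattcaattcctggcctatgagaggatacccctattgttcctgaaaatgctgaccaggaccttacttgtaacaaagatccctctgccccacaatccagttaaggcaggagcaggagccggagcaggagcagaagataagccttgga
Kdr: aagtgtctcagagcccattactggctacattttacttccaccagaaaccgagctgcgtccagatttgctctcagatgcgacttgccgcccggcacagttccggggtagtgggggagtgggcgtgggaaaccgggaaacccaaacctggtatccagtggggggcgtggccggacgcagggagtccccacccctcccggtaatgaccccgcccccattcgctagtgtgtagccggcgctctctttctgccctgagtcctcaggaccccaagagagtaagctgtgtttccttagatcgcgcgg
Stab1: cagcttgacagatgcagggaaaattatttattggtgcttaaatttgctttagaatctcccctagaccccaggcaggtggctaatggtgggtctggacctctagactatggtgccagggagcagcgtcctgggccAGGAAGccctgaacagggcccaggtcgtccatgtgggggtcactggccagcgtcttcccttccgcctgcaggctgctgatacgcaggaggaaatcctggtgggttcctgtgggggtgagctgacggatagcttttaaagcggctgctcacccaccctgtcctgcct
Eng: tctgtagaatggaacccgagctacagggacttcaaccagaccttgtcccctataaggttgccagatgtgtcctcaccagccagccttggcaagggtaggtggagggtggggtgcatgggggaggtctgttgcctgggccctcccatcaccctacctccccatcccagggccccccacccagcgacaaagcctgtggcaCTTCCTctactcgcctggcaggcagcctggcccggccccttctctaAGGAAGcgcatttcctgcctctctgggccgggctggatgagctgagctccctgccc
AGGAAG on either strand was present in 3 of the 5 promoters (Stab1, Flt1 and Eng) and in 35.4% of the 32851 promoters of the table. The longer ETS form CCGGAAG, found in 8.86% of all promoters, was in 0 of the 5, as was the forkhead form TGTTTAC, found in 3.65%. The GATA form AGATAA, present in 11.2% of all promoters, was in that of Tek, at bases 287 to 292 of the window. These matches are letters only, not shown sites.

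Other genes of the vascular system were read from lists of known ligands, receptors, junction proteins, regulators and sinusoidal products, drawn up with earlier results of these data known. After MMS in wild type, 0 of 18 vascular ligands and 0 of 17 further vascular receptors passed the test, with medians of -0.23 and -0.27. Over both genotypes 2 of the 18 ligands fell, where 7.49% of all genes did. They were Vegfa, the ligand of Kdr and Flt1, by 0.37 and the Notch ligand Dll1 by 0.41. Of the ligands, 0 passed there without control wild-type array 1 or 3, with the 5' to 3' control signal as a covariate or with arrays centred. Over both genotypes 2 of the 17 receptors fell, against the same 7.49%: Calcrl, for adrenomedullin, by 0.68 and Nrp1, a co-receptor of Kdr, by 0.49. Without control wild-type array 1, without array 3 or with arrays centred, 1 of the 17 passed there. Counts of 2 in lists this short are not read as a result about ligands or receptors. Of 24 endothelial transcription factors, 5 fell and 0 rose in wild type, where 5.33% of all genes fell and 2.2% rose, with a median of -0.56 and 20 of 24 differences below 0. They were Elk3 (-0.81 ± 0.12, adjusted p = 0.00524) and Ets1 (-0.70), both ETS factors, with Lmo2 (-0.85), Gata4 (-0.71) and Meis2 (-0.71). With each array centred on its median only 1 of the 24 fell in wild type. In knock-out 1 of the 24 fell, where 0.815% of all genes did: Nr2f2, a venous regulator, fell by 0.81 ± 0.16 (adjusted p = 0.0453).

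Of 19 sinusoidal scavenger and angiocrine genes measured, 3 fell in wild type, where 5.33% of all genes fell. They were the mannose receptor Mrc1 (-0.69), coagulation factor F8 (-0.59) and the hyaluronan scavenger Stab2 (-0.52). In knock-out 0 passed, with Stab2 at -0.48 ± 0.13 (adjusted p = 0.0762) and Mrc1 at -0.41 ± 0.13 (adjusted p = 0.0942). Of 20 other vascular genes measured, 10 fell in wild type, where 5.33% of all genes fell, with a list median of -0.60. The lowest adjusted p of the list was that of Tm4sf1 (-1.12 ± 0.14, limma adjusted p = 0.00357). The caveolar genes Cav1 (-1.74 ± 0.25, adjusted p = 0.00511) and Cav2 (-1.16) and the basement membrane collagen Col4a1 (-1.05) were also among the 10. In knock-out 3 of the 20 fell, where 0.815% of all genes did: Ptprm, a junctional phosphatase, by 0.96 ± 0.14 (adjusted p = 0.0264), Cav2 (-0.89) and Tm4sf1 (-0.86). Cav2 and Tm4sf1 each had 1 other probe set, whose knock-out difference had the opposite sign and did not pass. Of 18 junction and adhesion genes, 3 rose in wild type, where 2.2% of all genes rose, and 0 fell. With the 5' to 3' control signal as a covariate 2 fell there. Over both genotypes Selp, which encodes P-selectin, fell by 0.40 (adjusted p = 0.0448), 1 of 18 where 7.49% of all genes fell. Of the 18, 0 fell there without control wild-type array 1, with the covariate or with arrays centred. The 3 that rose in wild type were Icam1, the leukocyte adhesion molecule made by activated endothelium among other cells, by 1.45 ± 0.15 (adjusted p = 0.00195), the connexin gene Gja4 by 0.67 and Jam2 by 0.60. Without control wild-type array 1, the wild-type calls were 1 of 24 transcription factors, 0 of 19 sinusoidal genes, 6 of 20 other vascular genes and 1 of 18 junction genes, and without array 3 they were 1, 0, 5 and 2. With arrays centred, 1 of the 19 sinusoidal and 8 of the 20 other vascular genes fell in wild type, and 3 of the 18 junction genes rose. In knock-out 0 genes of these lists passed without control wild-type array 1, and likewise 0 passed with the 5' to 3' control signal as a covariate.

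**Figure D5:**
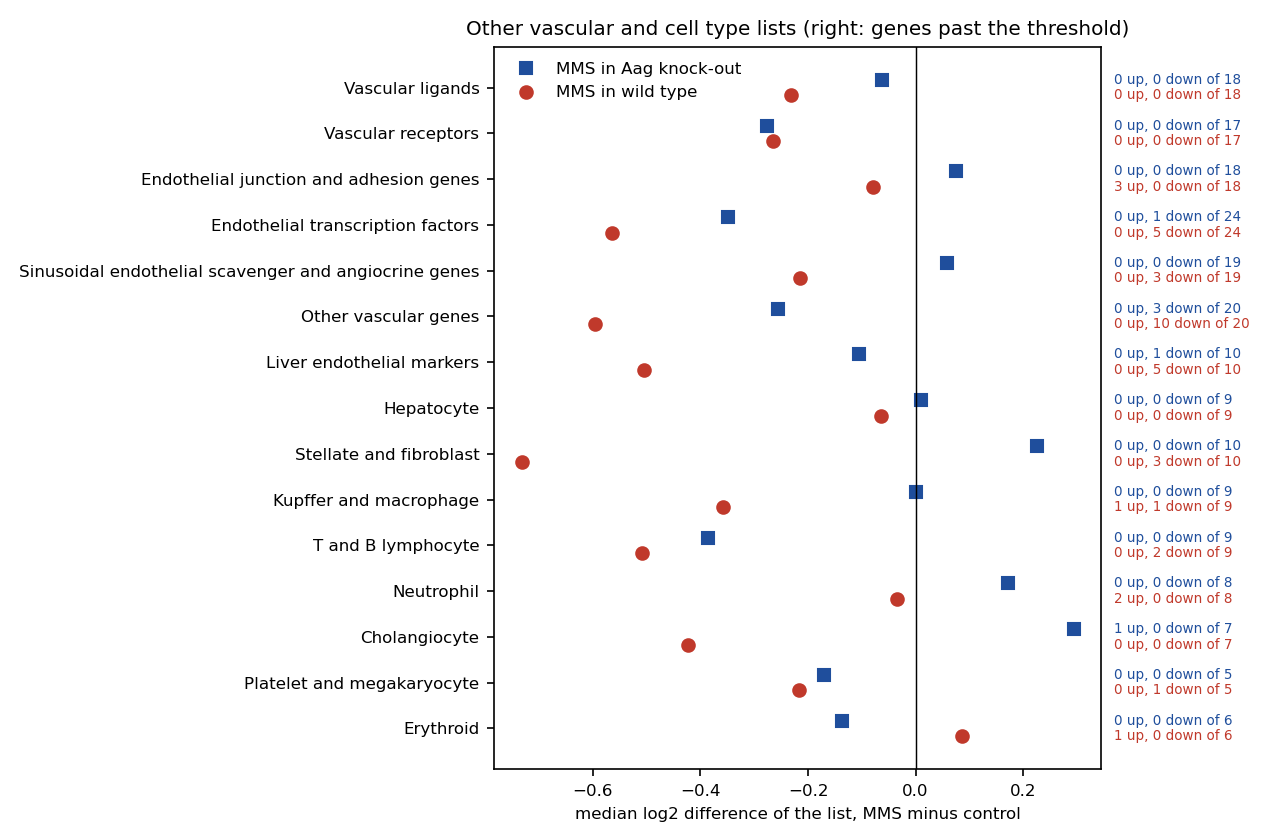
Median log2 difference, MMS minus control, of each gene list in knock-out and in wild type, with the number of genes past the threshold at the right. In wild type the lowest medians are those of the stellate genes, -0.73, the other vascular genes, -0.60, and the endothelial transcription factors, -0.56. The lymphocyte genes, -0.51, the 10 endothelial markers, -0.50, and the bile duct genes, -0.42, come next. The macrophage (-0.36), receptor (-0.27), ligand (-0.23), platelet (-0.22), sinusoidal (-0.22) and junction (-0.08) lists also lie below the -0.06 of all genes. The hepatocyte list, -0.07, is close to it, and only the neutrophil (-0.03) and erythroid (0.09) lists lie above.

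Markers of other liver cells were read in the same way. After MMS in wild type, 5.33% of all genes fell and 2.2% rose. In knock-out 0.815% of all genes fell, and 1.51% of all probe sets moved in either direction. In lists this short, 1 call alone is not read as a result about a cell type. Hepatocyte genes had a median of 0.01 in knock-out and -0.07 in wild type, and 0 of 9 passed in either. Of 10 stellate and fibroblast genes, 0 passed in knock-out, with a median of 0.23. In wild type 3 fell, all collagens (Col1a1 -2.49, Col3a1 -1.49 and Col1a2 -1.48), with a median of -0.73. Their mean centred signal was -0.24 to 0.23 in MMS-treated knock-out livers, against 0.03 to 0.12 in control knock-out livers, and -0.67 to -0.28 in MMS-treated wild-type livers, against 0.06 to 0.96 in control wild-type livers. In wild type this list thus lay lower after MMS, as the endothelial one did. Of 9 Kupffer and macrophage genes, Adgre1, which encodes F4/80, fell by 0.98 in wild type and Marco, a scavenger receptor, rose there by 1.29. The list median was -0.36 in wild type and 0.0005 in knock-out. Of 9 lymphocyte genes, Cd79b fell by 1.36 and Cd3e fell by 1.08 in wild type. The list median was -0.51 there and -0.39 in knock-out. The mean centred signal of the lymphocyte list was -0.54 to -0.27 in MMS-treated wild-type livers, clear of the 0.07 to 0.24 in control wild-type livers. Of 8 neutrophil genes, S100a8 rose by 2.33 and S100a9 rose by 2.62 in wild type, with a list median of -0.03. In knock-out these 2 differed by 1.24 and 1.96, which did not pass. Also in wild type, the platelet gene Pf4 fell by 0.68 (1 of 5 platelet genes), and the globin gene Hba-a1 rose by 0.93 (1 of 6 erythroid genes). In knock-out Hba-a1 differed by -0.32, which did not pass. In knock-out the bile duct keratin Krt19 rose by 1.90 ± 0.40 (adjusted p = 0.0472), 1 of 7 bile duct genes, with a list median of 0.29 there and -0.42 in wild type, and 0 genes of the other lists of cell types passed. The Krt19 call was lost without control wild-type array 1 or 3 and with the 5' to 3' control signal as a covariate. Without control wild-type array 1, and likewise without array 3, 3 stellate genes passed in wild type, as did 1 lymphocyte gene and 1 macrophage gene that fell, while 0 neutrophil or platelet genes and 0 macrophage genes that rose did. The part of these cell types in the endothelial values was not tested. No probe set reads 0 on this scale, so an absent cell type cannot be read from it.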

How the data were processed

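Liver RNA of 12 mice, 3 per group, was measured on 1-colour Affymetrix arrays. The deposited values are log2 signals per probe set, normalized by RMA per the submitters' processing notes; the scale, 2.21 to 14.70, fits log2. No source used here states scan batches, and no further processing step was assumed. Of 22690 probe sets, 64 controls were left out, and 20380 of the other 22626 carried 1 symbol, 691 several and 1555 none. Group means over all 12 arrays were fitted with limma 3.58.1 in R 4.3.3, with Benjamini-Hochberg adjustment over 22626 probe sets and a threshold of 0.05, without a low-signal filter. A gene is represented by its probe set of highest mean. The fit was tested on simulated data. Alternatives were a filter, 2 rescalings, trended variance, array weights, a replicate block, gene-level values, only the groups compared, arrays left out, and, chosen after seeing the data, the 5' to 3' control signal as a covariate. The genes named are the members, and from each other list some of those with the lowest adjusted p. Members and lists were chosen with earlier results of these data known. The number of arrays limits precision.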

Additional observations from a re-analysis of the deposited data

Results flagged for a closer look

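Stab1 1450199_a_at differed between the genotypes in its response to MMS by 0.60 on the log2 scale (knock-out minus wild type): every treated knock-out array lay above, and every treated wild-type array below, the control arrays of its genotype. The difference itself did not pass in limma (adjusted p = 0.176). The gaps were narrow, 9.70 against 9.68 at the nearest arrays in knock-out and 9.49 against 9.52 in wild type. Of all genes, 13.9% lay clear above in knock-out and 22.0% clear below in wild type, and the share with both was not counted. With the 5' to 3' control signal in the model the knock-out difference was 0.16.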

How the results depend on the processing

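The count of the 15 probe sets that passed after MMS in wild type, 6, was 4 or more under every alternative that kept all 12 arrays except centring each array on its median, which gave 3 (gene-level values are counted over the 10 genes). Leaving out 1 array gave 0 to 7, with 0 without control array 1 or 3 and 3 without MMS-treated array 1 or 3. In knock-out, 1 became 9 with array weights (3 higher, 6 lower), 7 with both knock-out arrays numbered 3 left out (3 higher, 4 lower), and 0 with the replicate block, with only the groups compared or with the 5' to 3' control signal as a covariate; leaving out 1 array gave 0 to 7, with 7 without MMS-treated knock-out array 3. Knock-out against wild type after MMS, 0, became 4 with array weights, without both arrays numbered 3 or without MMS-treated knock-out array 3 (range 0 to 4). The difference of the responses, 0, became 4 with array weights and 1 without both arrays numbered 3, and was 0 in each fit that left out 1 array. Over both genotypes, 6 became 3 with the covariate and 4 to 7 with 1 array left out. With the replicate block the counts were 6 in wild type, 5 over both genotypes and 0 elsewhere. The correlations of the deviations of same-numbered animals from their group means ran from -0.475 to 0.403. Deviations within a group of 3 are tied to each other, so these correlations cannot decide whether the numbers mark a pairing or a batch. Knock-out against wild type in controls was 0 throughout. Calls over all 22626 probe sets in wild type, 1458, became 4873 with array weights and 274 to 1798 with 1 array left out; in knock-out 341 became 5790, and 0 to 3264. Centring moved the median of all probe sets in wild type to 0.14, against -0.05 as deposited, and that of the difference of responses to -0.21, against 0.05. The causes were not tested. Of the gene differences that had passed, 0 reversed. The low-signal filter kept 13 of the 15 probe sets. The average over both genotypes and the difference of the responses need all 4 groups, so no fit of only the groups compared was made for them.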
